A study of Homo sapiens with 6 samples.

Results

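The regions described here are 1477 EZH2 peaks of ZCCHC8-KO ACHN cells that had no EZH2 peak of ZCCHC8-WT ACHN cells within 5 kb and that overlapped an H3K27me3 peak of the KO cells by at least 1 bp. They are called KO-only EZH2 peaks below. They were taken from 19566 EZH2 peaks listed in KO, of which 19349 had a score (the authors' value for each peak) below 20, the limit used here, and they made up 7.63% of those 19349. The choice used the EZH2 lists of both genotypes and the H3K27me3 list of KO, so the presence of both marks in KO and the absence of EZH2 in WT are the selection and not a finding.

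ACHN is an established human renal carcinoma line. Chromatin immunoprecipitation and sequencing was done for EZH2 and for H3K27me3 in cells labelled ZCCHC8-KO and in cells labelled ZCCHC8-WT, giving 1 library for each of the 4 combinations and 1 input library for KO and 1 for WT. No other treatment, time point or allele is labelled, and the sources used here do not say whether the KO cells were 1 clone or a pool. Deposited peak lists were analysed, so without replicates no difference between the genotypes was tested, the read depth behind each list is unknown, and the EZH2 and H3K27me3 lists of a genotype share 1 input. Percentages are followed by exact 95% Clopper-Pearson intervals where given, which cover counting error only, and peaks of 1 library are not replicates of a genotype. Peak lists hold no expression values, so the cell line was not checked against marker genes.

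EZH2 is the methyltransferase of the Polycomb complex PRC2, which methylates lysine 27 of histone H3, and the trimethylated form, H3K27me3, marks silent genes. In many cell types PRC2 sits at CpG-rich starts of developmental regulators and spreads its mark from there. ZCCHC8 is the scaffold of the NEXT complex, which hands short-lived nuclear transcripts to the RNA exosome, and the series asks how NEXT relates to H3K27me3.

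Few of the KO-only EZH2 peaks lay on a gene start, 6 of 1477 (0.406%, 0.149 to 0.882), and so it was for all KO EZH2 peaks (0.744%). Of 35116 RefSeq promoter windows (GRCh38.p14), which run from 250 bases before to 50 bases after a start, 7 (0.0199%) overlapped such a peak. They belonged to PLA2G7, with both of its windows, GAS2, SLC5A8 and the non-coding genes PANTR1, LINC03056 and LINC02037. Below are the window of PANTR1, a non-coding gene that starts beside POU3F3, the more CpG-rich window of PLA2G7 and the window of SLC5A8, because they show how much of a start these peaks covered, and the window of POU3F3, because that gene had the largest group of KO-only peaks. Capitals mark the bases under a KO-only EZH2 peak, and each sequence runs 5′ to 3′ on the strand of its gene.
POU3F3: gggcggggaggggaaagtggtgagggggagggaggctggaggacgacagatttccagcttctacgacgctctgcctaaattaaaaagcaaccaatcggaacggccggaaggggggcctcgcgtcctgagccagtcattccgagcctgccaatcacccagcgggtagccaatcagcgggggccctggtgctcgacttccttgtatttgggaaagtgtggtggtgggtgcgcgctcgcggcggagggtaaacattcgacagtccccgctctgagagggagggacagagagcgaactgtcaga
PANTR1: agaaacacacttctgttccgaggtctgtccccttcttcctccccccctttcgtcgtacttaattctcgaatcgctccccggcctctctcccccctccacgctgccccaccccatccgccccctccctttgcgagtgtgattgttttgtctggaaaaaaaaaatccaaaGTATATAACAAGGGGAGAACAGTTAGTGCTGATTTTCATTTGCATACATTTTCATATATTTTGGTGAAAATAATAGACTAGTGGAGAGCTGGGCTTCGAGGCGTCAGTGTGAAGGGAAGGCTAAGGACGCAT
PLA2G7: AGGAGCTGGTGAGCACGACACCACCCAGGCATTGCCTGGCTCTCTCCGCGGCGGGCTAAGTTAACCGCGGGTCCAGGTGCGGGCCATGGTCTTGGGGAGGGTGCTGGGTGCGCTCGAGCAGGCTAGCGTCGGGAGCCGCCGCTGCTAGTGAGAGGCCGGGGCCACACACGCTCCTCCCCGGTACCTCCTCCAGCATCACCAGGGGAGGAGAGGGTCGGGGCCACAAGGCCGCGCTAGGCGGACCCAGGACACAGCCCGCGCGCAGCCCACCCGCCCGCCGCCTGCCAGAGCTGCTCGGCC
SLC5A8: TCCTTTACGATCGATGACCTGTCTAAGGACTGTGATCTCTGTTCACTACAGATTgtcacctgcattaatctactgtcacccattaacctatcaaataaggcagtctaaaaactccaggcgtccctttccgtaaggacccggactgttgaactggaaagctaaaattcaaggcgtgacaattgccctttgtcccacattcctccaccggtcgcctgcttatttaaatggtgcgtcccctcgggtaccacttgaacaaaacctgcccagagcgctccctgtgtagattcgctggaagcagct
The POU3F3 window (chr2:104853865-104854164, plus strand) held 21 CpG in 300 bases and none of its bases lay under a KO-only peak, the nearest of which started after a gap of 46 bp. In the PANTR1 window (chr2:104851427-104851726, minus strand, 12 CpG) 132 bases at its downstream end were covered. The PLA2G7 window (chr6:46735326-46735625, minus strand, 27 CpG) was covered over all 300 bases. PLA2G7 encodes a phospholipase carried by plasma lipoproteins. In the SLC5A8 window (chr12:101210189-101210488, minus strand, 12 CpG) the first 54 bases were covered. The KO-only peak there, 408 bp wide, had 20 bp under KO H3K27me3 and 393 bp under WT H3K27me3. Within 5 kb of the ends of SLC5A8, H3K27me3 covered 1895 bp in KO and 2886 bp in WT. SLC5A8 encodes a sodium-coupled monocarboxylate transporter of kidney tubule and gut. No printed window overlapped a KO H3K27me3 peak, the gaps being 337 bp (POU3F3), 16 bp (PANTR1), 557 bp (PLA2G7) and 334 bp (SLC5A8). The capitals therefore show EZH2 peaks only, and their overlap with KO H3K27me3 lay outside the windows.
With 7 windows, 2 of them of 1 gene, their base composition could not be told from that of all windows. With CpG-rich taken as at least 50% G and C and a CpG content of at least 0.6 of that expected from the base composition, 1 of the 7 was CpG-rich (14.3%, 0.361 to 57.9), against 46.9% of all windows and 28.6% of 21 windows under KO EZH2 peaks with H3K27me3 and WT EZH2 nearby. The median observed over expected CpG was 0.514 in the 7 windows and 0.579 in all windows.

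The largest group of KO-only EZH2 peaks lay at the gene of POU3F3, a transcription factor needed for nephron and cortex development (hg38, chr2:104841330-104869660). Within these 28331 bp, 8 KO-only peaks covered 8933 bp, and their scores ran from 5 to 12. The widest peaks measured 2375 bp and 2116 bp, the widest of all 1477, and both lay inside PANTR1. A peak of 817 bp with a score of 12 began just after the POU3F3 promoter window, and peaks of 993, 547 and 458 bp followed inside the gene. KO cells had 18 EZH2 peaks and 11 H3K27me3 peaks in this stretch, the H3K27me3 peaks covering 5273 bp. WT cells had no peak of either antibody there or within 5 kb, the nearest WT EZH2 peak being 83243 bp and the nearest WT H3K27me3 peak 13407 bp away. Peak lists do not show whether reads covered this stretch in WT. The rest of the annotated gene was not empty in WT, as over its 74498 bp H3K27me3 had 12 peaks covering 5269 bp in KO and 6 covering 2063 bp in WT, while EZH2 had 12 peaks in KO and none in WT.

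**Figure D1:**
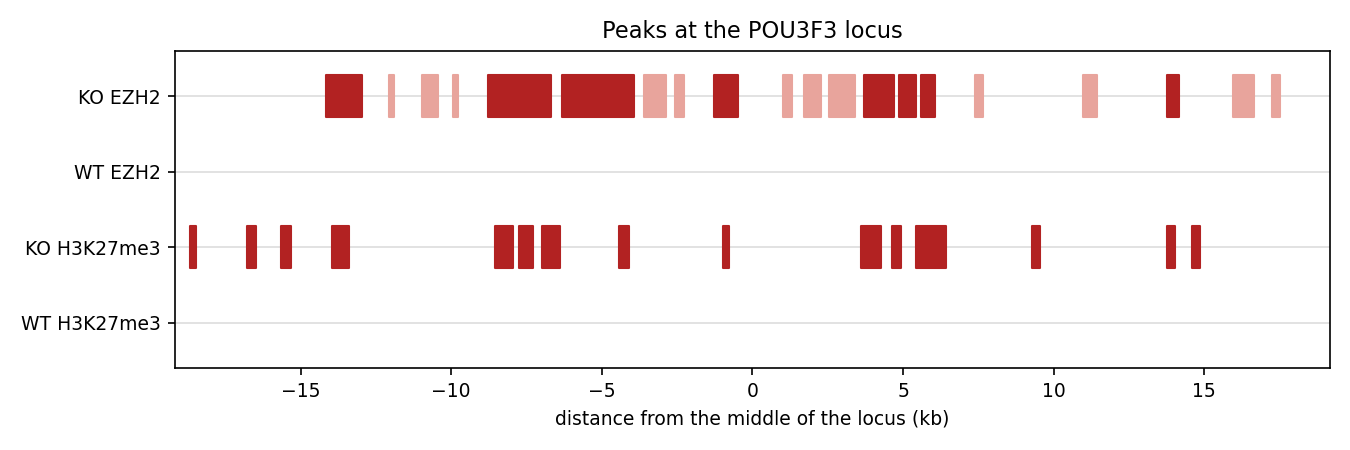
Peaks of the 4 lists around POU3F3, by distance from the middle of the locus in kb; each block is 1 listed peak, and on the KO EZH2 line the dark blocks are the 8 KO-only peaks that overlap H3K27me3 and the pale blocks the other KO EZH2 peaks. The lines of WT EZH2 and WT H3K27me3 are empty over the locus and 5 kb on both sides.

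Most KO-only EZH2 peaks stood alone. Joined where gaps were 10 kb or less, the 1477 peaks formed 1276 loci, of which 1127 held 1 peak, 116 held 2, 25 held 3 and 8 held 4 or more. The 33 loci of 3 or more were on chromosomes 2 (14 loci), 10 (6), 12 (6), 1 (3), 17 (2), 16 and 20. In 27 of the 33 WT cells had an H3K27me3 peak inside the locus as well. The H3K27me3-covered length was larger in KO at 28 and smaller at 5, with KO H3K27me3 required by the choice. Described below are loci among the first 15, ordered by number of peaks and, where tied, by the length these peaks cover.

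ABCG8, which encodes one part of the sterol transporter of liver and gut, had the second largest group and showed another pattern than POU3F3. Its locus (chr2:43862770-43871044) held 6 KO-only peaks over 2648 bp, with scores from 5 to 7, and no WT EZH2 peak within 29529 bp. H3K27me3 was listed there in both genotypes, with 4 peaks covering 6420 bp in KO and 4 peaks covering 6963 bp in WT. Over the whole gene KO had 7 EZH2 peaks against none in WT, while H3K27me3 peaks covered 12835 bp in KO and 13680 bp in WT.

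MYO3B, a class III myosin of sensory cells, held 5 KO-only peaks between chr2:170363266 and 170368299, where H3K27me3 covered 2471 bp in KO and 1614 bp in WT. A locus of 5 peaks at chr12:5130719-5136484, inside the non-coding gene LOC105369617 and 83930 bp from any protein-coding gene, had 4069 bp of H3K27me3 in KO and 3158 bp in WT. The locus nearest to HOXC13, a HOX gene of hair follicles, lay 32613 bp from it and held 5 peaks, with 5282 bp and 4037 bp of H3K27me3 in KO and WT. Near GOT1, an aspartate aminotransferase, 5 peaks lay over 19211 bp with 3604 bp of H3K27me3 in KO and 1362 bp in WT.
Near TNS1, a focal adhesion protein, 4 peaks lay inside the non-coding gene DIRC3, where H3K27me3 covered 2547 bp in KO and 1140 bp in WT. Near SLC35G1 3 peaks had 2531 bp and 1036 bp of H3K27me3 in KO and WT, and near KCNA1, a neuronal potassium channel, 3 peaks had 1726 bp and 1429 bp. At chr2:109030320-109038510 the order was the other way, with 992 bp in KO and 1135 bp in WT. That locus is named for RANBP2, a nucleoporin gene, only because the annotation used gives this gene 1122820 bp, from 108719482 to 109842301. The 5 peaks near PPIAL4E had 8346 bp in KO and 3808 bp in WT, but PPIAL4 genes have near-identical copies, so these reads cannot be placed with certainty.
Of the 5 among these 15 with no protein-coding gene within 50 kb, the one at chr20:26648912-26653863 had 3 KO-only peaks and 1412 bp of H3K27me3 in KO and no WT H3K27me3 peak within 39551 bp. It lay 952058 bp from any protein-coding gene, in a bin at or beside the centromere, described below, where read placement is uncertain. The others of the 5 each had WT H3K27me3 peaks inside the locus.

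Among the 10 widest KO-only peaks 4 lay at POU3F3, and 3 of the 10 overlapped a WT H3K27me3 peak. A peak of 1619 bp (score 8) covered the start of PLA2G7, with 531 bp of it under KO H3K27me3, no WT H3K27me3 on it and the nearest WT H3K27me3 peak 1317 bp away. A peak of 1460 bp (score 6) lay in SUSD4, a complement-regulating membrane protein of brain, with 987 bp under KO H3K27me3 and the nearest WT peak at 1083 bp. A peak of 1024 bp (score 7) lay 34414 bp from KCNA5, a potassium channel of heart and vessels. The peaks that did overlap WT H3K27me3 included the 938-bp peak in ABCG8, which lay under it over its whole length, and the 1135-bp peak near SLC35G1, with 227 bp under it.

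Within 5 kb of a gene end, 162 of 20033 protein-coding genes (0.809%) had a KO-only EZH2 peak. Of these genes 129 also had a WT H3K27me3 peak in the same window, 58 had a WT EZH2 peak elsewhere in it, and 22 had neither WT mark. The shares of all genes with WT peaks in such a window are not given here, so these counts cannot be set against a background. Of the genes named from lists below, WT EZH2 peaks also lay in the windows of LHX9 (2), PAX4 (1), FOXO1 (2) and FGF6 (2). The same held for KCNB2 (3), KRT74 (2), CLEC4E (1), OR6C74 (1), OR4D2 (4) and CD3E (1), and for WNT6 and WNT10A. FOXO1 and OR6C74 also had a peak of the WT-only set described below. Developmental transcription factors, taken as 8 lists with 363 genes, had 10 members among them (2.75%, 1.33 to 5.01). KO EZH2 peaks that overlapped H3K27me3 and had a WT EZH2 peak within 5 kb lay at 45 of the same 363 genes (12.4%, 9.19 to 16.2), against 1.9% of all genes. KO EZH2 peaks without H3K27me3 and without WT EZH2 within 5 kb lay at 39 (10.7%, 7.75 to 14.4), against 5.12% of all genes. The WT-only set lay at 12 (3.31%, 1.72 to 5.7), against 1.33% of all genes, a share close to that of the KO-only peaks.

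In the NK-like and related homeobox families 1 of 60 (1.67%) had a KO-only peak, against 0.809% of all genes. A KO EZH2 peak with H3K27me3 and WT EZH2 nearby lay at 19 of 60 (31.7%), against 1.9% of all genes. The 1 KO-only peak was at DBX2, a factor of spinal interneuron progenitors, with 564 bp of KO H3K27me3 and 908 bp of WT H3K27me3 in its window. None of 39 HOX genes and none of 45 GATA and developmental zinc finger genes had a KO-only peak, and 2 of each list had one with WT EZH2 nearby. Of 65 paired-type, LIM-type and related homeobox genes 4 (6.15%) had a KO-only peak and 6 (9.23%) one with WT EZH2 nearby. LHX9, which acts in gonad and limb development, had 2 KO-only peaks, with 1050 bp of H3K27me3 in KO and 396 bp in WT. PAX4, a factor of pancreatic beta cells, had 1, with 1155 bp and 522 bp of H3K27me3 in KO and WT. ONECUT1, a liver and pancreas factor, had 594 bp in KO and 1339 bp in WT. LHX9 and PAX4 thus had more H3K27me3 in KO and ONECUT1 had less.

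Among the other factor lists POU3F3 was the 1 gene of 15 POU factors, and it stands also in the list of kidney genes, as its 1 gene of 60. NEUROD4, a neuronal differentiation factor, was the 1 gene of 52 developmental bHLH factors, with 2 KO-only peaks and 5827 bp of H3K27me3 in KO against 3301 bp in WT. Of 51 forkhead genes 2 had a peak, FOXO1, which acts downstream of insulin signalling (1172 bp in KO and 590 bp in WT), and FOXD4L3, whose near-identical copies make its value uncertain. The FOXO1 window held 1 EZH2 peak in KO and 2 in WT. TBX4, a hindlimb and lung factor, was the 1 gene of 36 SOX and T-box genes, with 433 bp in KO and 242 bp in WT. KO EZH2 peaks with H3K27me3 and WT EZH2 nearby lay at 1 POU factor, 8 bHLH factors, 5 forkhead genes and 2 SOX and T-box genes.

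Among secreted signals, of 43 WNT pathway genes 2 had a KO-only peak, the neighbours WNT6 and WNT10A, which share the same 2 peaks. WNT6 had 889 bp and WNT10A 683 bp of H3K27me3 in KO, and neither had any in WT. WT EZH2 peaks were listed elsewhere in both windows, 3 at WNT6 and 1 at WNT10A. Of 55 BMP, GDF and FGF genes and antagonists 1 did, FGF6, a growth factor of muscle, with 2299 bp in KO and 186 bp in WT.

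In each neuronal list 0 to 2 genes had such a peak, and 0.809% of all genes did. None of 71 axon guidance genes, 65 synaptic adhesion and vesicle genes, 35 cadherins and 53 clustered protocadherins had a KO-only peak. Of 40 voltage-gated potassium channels 2 did (5%), KCNS2 (904 bp of H3K27me3 in KO and 199 bp in WT) and KCNB2 (2091 bp in KO and 1718 bp in WT). Of 47 glutamate and GABA receptor genes 1 did (2.13%), GABBR2, a subunit of the metabotropic GABA receptor, with 696 bp in KO and none in WT.

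Of 43 C-type lectin and NK receptor genes 4 (9.3%) had a KO-only peak, against 0.809% of all genes, with 3 distinct peaks behind them. The WT-only set had a peak at 4 of the same 43 genes as well, and KO EZH2 peaks with H3K27me3 and WT EZH2 nearby lay at 3. CLEC4D and CLEC4E, neighbouring receptors of myeloid cells, share 1 peak, and their H3K27me3 covered 6919 bp in KO and 3692 bp in WT at CLEC4D, and 2519 bp in KO and 3130 bp in WT at CLEC4E. CLEC2L had 229 bp in KO and none in WT, and CLEC19A 888 bp in KO and 163 bp in WT. Of 392 olfactory receptor genes 5 had a peak, with OR6C1 and OR6C3 sharing 1. OR6C74 had 3514 bp in KO and 3249 bp in WT, OR4D2 2815 bp and 3116 bp, and OR6B2 271 bp and 961 bp. CD3E, a chain of the T cell receptor complex, was the 1 of 26 blood lineage genes (1348 bp in KO and 302 bp in WT), and KRT74, a hair follicle keratin, the 1 of 55 keratins (1817 bp and 423 bp in KO and WT).

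No KO-only peak lay at any of 36 muscle genes, 36 cyclin D, CDK inhibitor and tumour suppressor genes, 15 MHC class II genes, 509 ZNF genes, 32 Polycomb genes, 24 NEXT, PAXT and exosome genes or 36 housekeeping genes. ZCCHC8, EZH2, SUZ12 and EED had none within 5 kb of an end or inside the gene. With 0.809% of all genes carrying such a peak, a count of 0 in a short list is near that background. The 509 ZNF genes are not a short list, so this does not hold for them. Their share of KO EZH2 peaks with H3K27me3 and WT EZH2 nearby was 0.786%, against 1.9% of all genes. The cause was not tested.

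The 22 genes with neither WT mark in their window, some of which are named here after their values were seen, had 1 KO-only peak each except LOC124908045, a predicted gene inside the POU3F3 locus, which had 4. PPARD, a nuclear receptor for fatty acids, had 1 KO EZH2 peak and 206 bp of KO H3K27me3. CX3CL1, a membrane-bound chemokine, had 2 KO EZH2 peaks and 479 bp. PMP22, a protein of peripheral myelin, had 3 and 939 bp, and MOGAT2, an enzyme of fat absorption in the gut, 1 and 1000 bp. The ATP-gated channel gene P2RX2 and its neighbour LRCOL1 share 1 KO-only peak of 423 bp. LCE2B, a gene of the outer skin layer, had 1 KO EZH2 peak and 774 bp of H3K27me3.

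Some long genes held several KO-only peaks inside, and they are named after their values were seen. ACOXL, an acyl-CoA oxidase-like gene of 385976 bp, held 10, MYO3B held 8 and RPH3A, a synaptic vesicle protein, 7. Of the 21 genes with 3 or more inside, 13 had more H3K27me3-covered length in KO and 8 had less. In ACOXL EZH2 peaks numbered 25 in KO and 25 in WT, and H3K27me3 covered 61021 bp in KO and 40344 bp in WT. MYO3B had 41 EZH2 peaks in KO and 30 in WT, with 44114 bp and 50329 bp of H3K27me3 in KO and WT. RPH3A had 47 EZH2 peaks in KO and 40 in WT, with 59243 bp and 41797 bp of H3K27me3 in KO and WT. WSCD2 held 5 KO-only peaks among 10 EZH2 peaks in KO and 2 in WT, and its H3K27me3 covered 6522 bp in KO and 1067 bp in WT. JAKMIP3 had 10 EZH2 peaks in KO and 1 in WT, and 4936 bp and 2128 bp of H3K27me3 in KO and WT. GREB1, an oestrogen-responsive gene, had 12 EZH2 peaks in KO and 9 in WT, and 10668 bp and 4371 bp. In RAB3C, a vesicle-trafficking GTPase gene with 5 KO-only peaks, EZH2 peaks numbered 9 in KO and 13 in WT, and H3K27me3 covered 36209 bp in KO and 42865 bp in WT. Since these genes were ranked by KO-only peaks, an excess of KO peaks is partly built in.

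The WT H3K27me3 list was not used by the choice, and it showed the mark within 5 kb of 74.5% of the KO-only EZH2 peaks, against 56.4% of all KO EZH2 peaks and, for KO H3K27me3 near the WT-only set described below, 66.8%. The share was 93.2% for KO EZH2 peaks with H3K27me3 and a WT EZH2 peak within 5 kb. For KO EZH2 peaks without H3K27me3 and without WT EZH2 within 5 kb it was 39.4%. Of the 1477, 370 (25.1%, 22.9 to 27.3) overlapped a WT H3K27me3 peak, against 14.7% of all 19349 KO EZH2 peaks. A further 730 (49.4%) had a WT H3K27me3 peak within 5 kb without overlap, 303 (20.5%) had one between 5 and 50 kb away and 74 (5.01%, 3.95 to 6.25) had none within 50 kb. KO EZH2 peaks with H3K27me3 and a WT EZH2 peak within 5 kb overlapped WT H3K27me3 in 46.9% of 2177 cases (44.8 to 49.1). KO EZH2 peaks without H3K27me3 and without WT EZH2 did so in 5.62% of 10821 cases (5.19 to 6.07). KO-only peaks were thus between these sets. Because the choice required KO H3K27me3 and no WT EZH2 peak within 5 kb, the 25.1% is not independent of it.

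**Figure D2:**
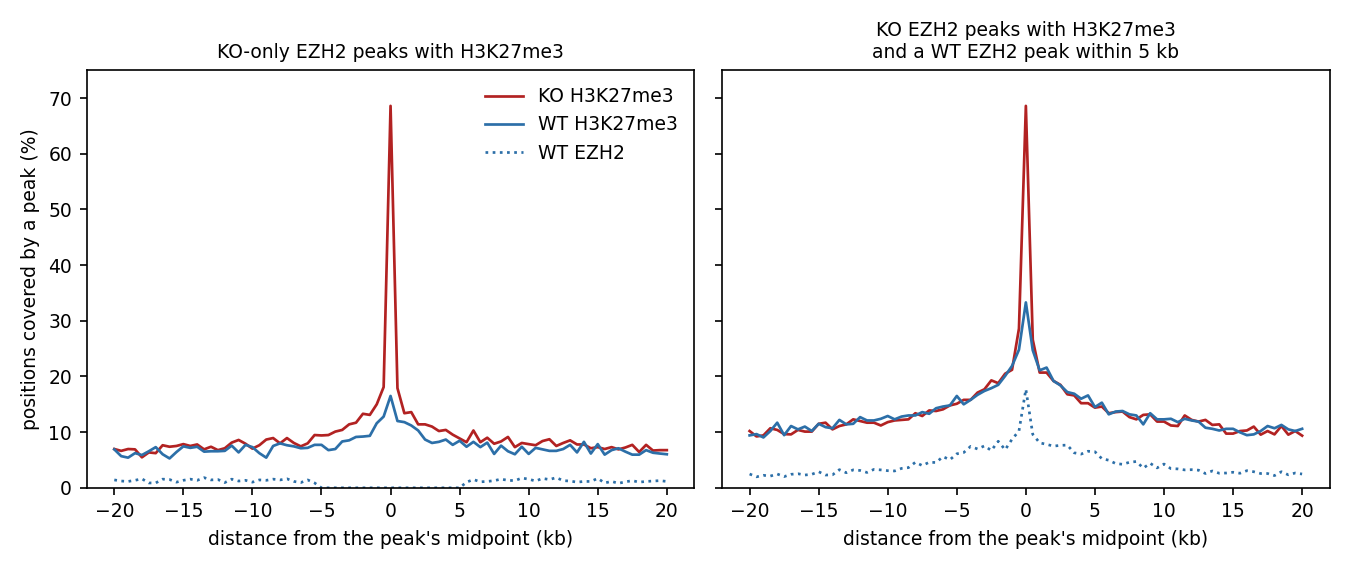
Percent of positions under a listed peak, by distance from the EZH2 peak's midpoint in kb, for the 1477 KO-only peaks (left) and the 2177 KO EZH2 peaks with H3K27me3 and a WT EZH2 peak within 5 kb (right); lines are KO H3K27me3, WT H3K27me3 and WT EZH2. At the midpoint KO H3K27me3 covered 68.6% in both sets and WT H3K27me3 16.5% on the left and 33.3% on the right; WT EZH2 is at 0 within 5 kb on the left by the choice.

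The share of KO H3K27me3 peaks that were also listed in WT was compared at the same score. Up to a score of 11, the share under KO-only EZH2 peaks was closer to that of all KO H3K27me3 peaks. It was farther from the share under KO EZH2 peaks with a WT EZH2 peak within 5 kb. There were 1469 H3K27me3 peaks under KO-only EZH2 peaks, with a median width of 346 bp against 265 bp for all 69840 KO H3K27me3 peaks. Of the 1469, 28.7% (26.4 to 31.1) overlapped a WT H3K27me3 peak, against 21.4% of all. With a score of 4 to 5 the share was 13.8% (10.8 to 17.2) under KO-only peaks and 12.4% (12 to 12.8) in all. With 6 to 7 it was 27.3% (23.7 to 31.1) and 23% (22.5 to 23.5), intervals that did not overlap, and with 8 to 11 it was 46.3% (41.1 to 51.6) and 44% (43 to 45). With 12 to 19 it was 56.5% (41.1 to 71.1) on 46 peaks and 72.7% (69 to 76.1).
H3K27me3 peaks under KO EZH2 peaks with WT EZH2 nearby had higher shares at each of these scores, namely 30.8%, 40.1%, 66.2% and 90.8%. Their counting-error intervals and those of the KO-only set did not overlap at any of these 4 score classes. The sets were split by whether a WT EZH2 peak lay within 5 kb. A difference between them in WT H3K27me3 is therefore not independent of the choice. Whether repeats of a genotype would share peaks at these rates is unknown.

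**Figure D3:**
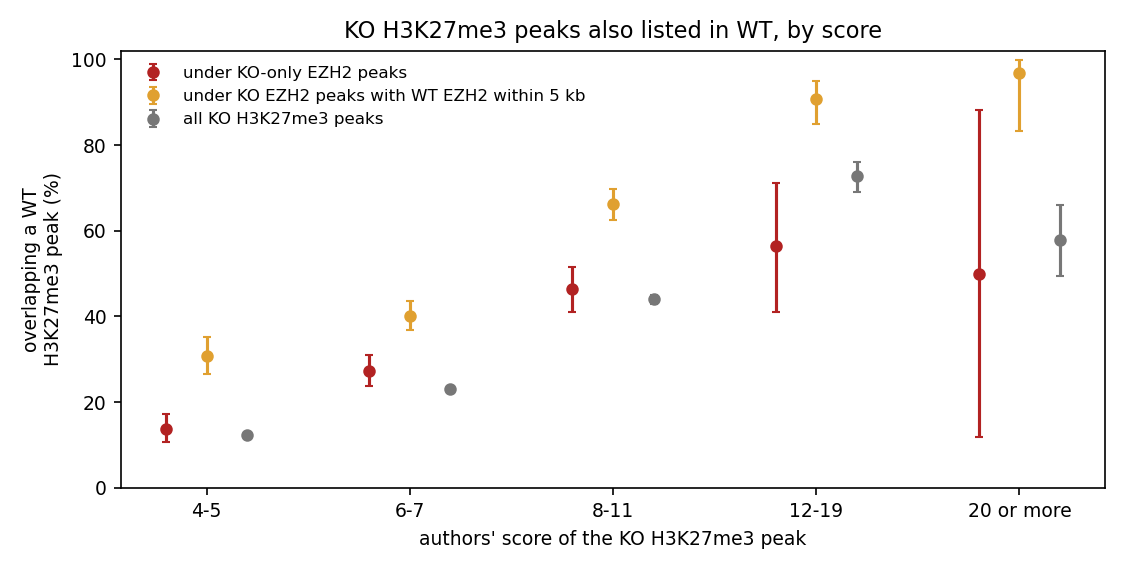
Percent of KO H3K27me3 peaks that overlap a WT H3K27me3 peak, by the authors' score of the KO peak; bars are exact 95% intervals of counting error. Peaks under KO-only EZH2 peaks lie at 13.8% to 56.5% over the scores from 4 to 19, and below those with a WT EZH2 peak nearby; at scores of 6 to 7 their interval (23.7% to 31.1%) lies above that of all KO H3K27me3 peaks (22.5% to 23.5%).

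Outside the EZH2 peak and the H3K27me3 peaks that chose it, the surrounding chromatin held somewhat more H3K27me3 in KO. Within 5 kb of the midpoints of KO-only peaks, H3K27me3 covered 10.4% of the remaining length in KO and 8.82% in WT, a KO/WT ratio of 1.18. The ratio was 0.925 around KO EZH2 peaks with H3K27me3 and WT EZH2 nearby, 0.981 around KO-only EZH2 peaks without H3K27me3 and 0.732 over the whole lists. A further H3K27me3 peak lay in this flank at 80.5% of KO-only peaks in KO and at 73% in WT. The flanks of neighbouring peaks overlap, and since the sites were chosen by KO signal, flanks close to them are not independent of the choice.

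The mirror set was also counted. In WT 2122 EZH2 peaks (6.92% of WT EZH2 peaks below the score limit) overlapped WT H3K27me3 and had no KO EZH2 peak within 5 kb. Of these, 16% (14.5 to 17.7) overlapped a KO H3K27me3 peak, against 9.22% of all WT EZH2 peaks below the limit. The flank ratio KO/WT there was 0.519, with 6.22% covered in KO and 12% in WT. So 25.1% of KO-only peaks had the mark in WT and 16% of WT-only peaks had it in KO, while the KO H3K27me3 list as a whole covered 23176025 bp and the WT list 31678574 bp.

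**Figure D4:**
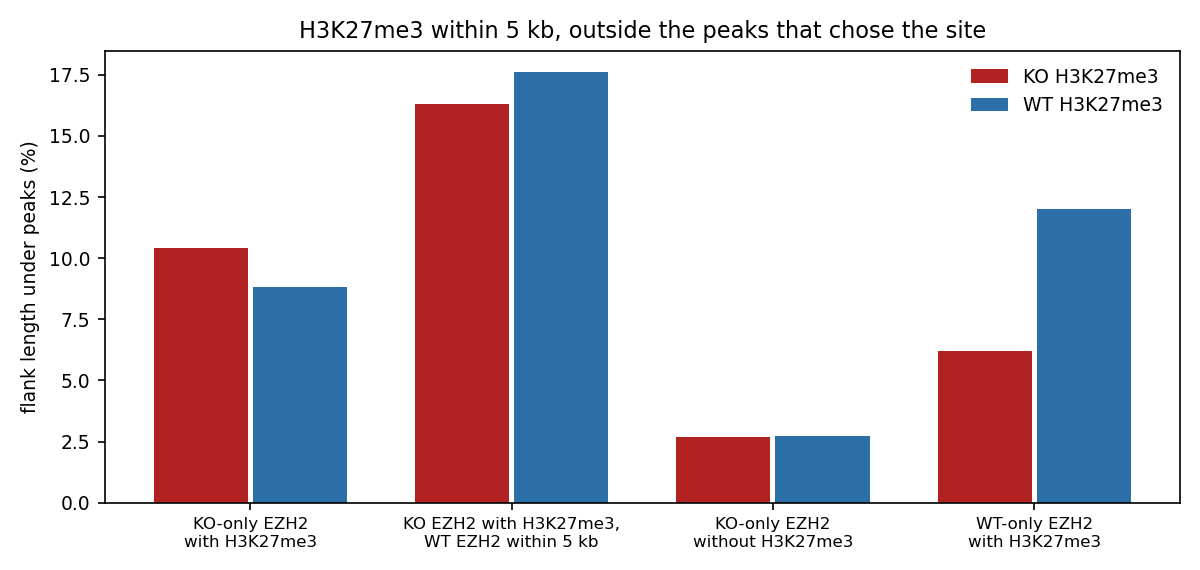
Percent of the length within 5 kb of the peak midpoint, outside the EZH2 peak and the H3K27me3 peaks it overlaps, that lies under H3K27me3 peaks of KO and of WT, for 4 sets of EZH2 peaks. KO-only peaks with H3K27me3 have 10.4% in KO and 8.82% in WT, and the WT-only set has 6.22% in KO and 12% in WT.

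KO-only EZH2 peaks were unevenly spread over the chromosomes. Chromosome 2 held 300 (20.3%), chromosome 12 193, chromosome 1 178 and chromosome 10 168, together 56.8% of them, against 46.9% of all KO EZH2 peaks. As a share of the KO EZH2 peaks of a chromosome they were highest on chromosome 20 (18.7%, 14.5 to 23.6) and, among the autosomes, lowest on chromosome 4 (1.33%, 0.575 to 2.6), with 7.63% over all chromosomes. On chromosome X 1 of 57 was KO-only with H3K27me3.

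**Figure D5:**
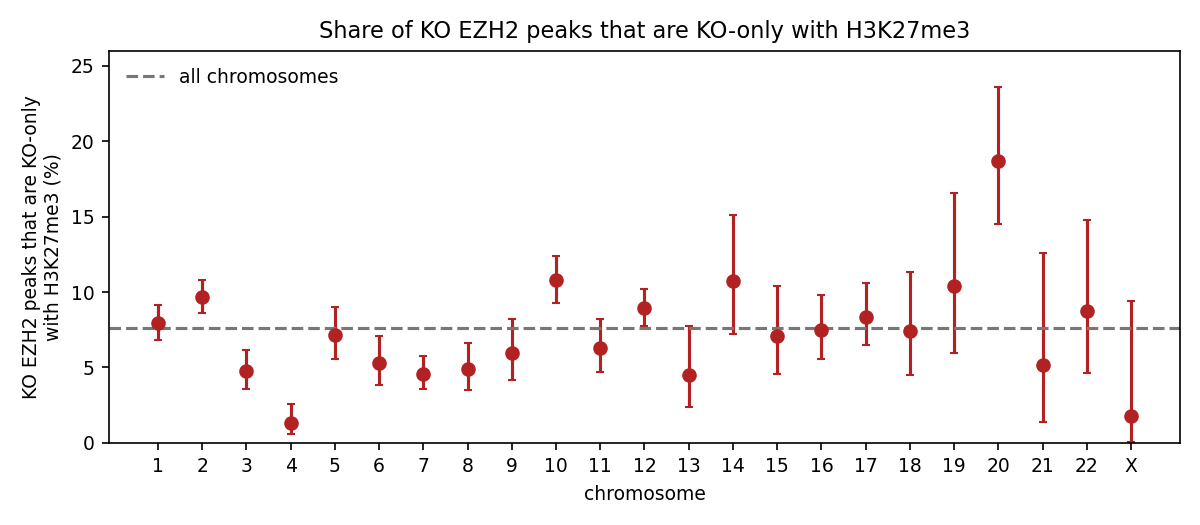
Percent of the KO EZH2 peaks of each chromosome that are KO-only with H3K27me3; bars are exact 95% intervals of counting error and the dashed line is the share over all chromosomes, 7.63%. Chromosome 20 lies highest at 18.7% and chromosome 4 at 1.33%.

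On chromosome 20, 44 of the 56 KO-only peaks lay in the single 5-Mb bin from 25000001 to 30000000, where 99 EZH2 and 397 H3K27me3 peaks were listed in KO, against 24 and 60 in WT, and 3 of the 44 overlapped WT H3K27me3. The bin of chromosome 2 from 90000001 to 95000000 held 61 KO-only peaks, the most of any, and there WT was not sparse, with 364 EZH2 and 1078 H3K27me3 peaks in KO and 314 and 1052 in WT. In that bin 34 of the 61 overlapped WT H3K27me3. The bin of chromosome 1 from 120000001 to 125000000 held 20, of which 2 overlapped WT H3K27me3, with 90 and 30 EZH2 peaks in KO and WT. These 3 bins lie at or beside centromeres, where repeated sequence makes the placement of reads uncertain.
Of all KO-only peaks 168 (11.4%) lay more than 500 kb from any protein-coding gene, against 7.82% of all KO EZH2 peaks below the score limit, and 32 of the 168 (19%) overlapped WT H3K27me3. Of the 7 KO-only peaks with a score of 16 or more, 4 of them tied at 16, 5 were of this kind, 1 lay 304431 bp from a gene and 1 lay inside SERINC2. Of the 61 with a score of 10 or more, 35 (57.4%) were that far from genes, and of the 217 KO EZH2 peaks at or above the score limit 57.1% were.

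Like all KO EZH2 peaks, KO-only peaks were mostly outside protein-coding genes. Of the 1477, 431 (29.2%, 26.9 to 31.6) overlapped a protein-coding gene, against 36.3% of all KO EZH2 peaks, 258 of the rest overlapped a gene of another kind, and 788 overlapped no gene. Within 5 kb of a protein-coding gene end lay 172 (11.6%, 10.1 to 13.4), against 25.5% (23.7 to 27.4) of the KO EZH2 peaks with H3K27me3 and WT EZH2 nearby and 16.2% of all. More than 50 kb from any protein-coding gene lay 37.6%, against 32.7% of all, 26.6% of the set with WT EZH2 nearby and 38.3% of KO-only EZH2 peaks without H3K27me3.

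KO-only peaks were much like all KO EZH2 peaks in width and score. Their width had a median of 253 bp (167 to 2375), against 232 bp in all KO EZH2 peaks, 290 bp in the set with WT EZH2 nearby and 220 bp in KO-only EZH2 peaks without H3K27me3. A width of 500 bp or more was found in 6.23% (5.05 to 7.58), against 5.23% of all, 17.3% of the set with WT EZH2 nearby and 1.61% of those without H3K27me3. A median of 70% of a peak's length lay under KO H3K27me3. The score had a median of 5, as in all KO EZH2 peaks, and 790 (53.5%) had a score of 4 or 5, against 57.1% of all. Both KO lists went down to a score of 4 and both WT lists to 5. The 263 KO-only peaks (17.8%) with a score of 4 were thus below the lowest score of either WT list.
WT H3K27me3 overlapped 15.6% (11.4 to 20.5) of KO-only peaks with a score of 4 and 25.8% (22.1 to 29.8) of those with a score of 5, and the share was between 26.3% and 29.5% at higher scores. It was 31.3% (27.2 to 35.7) where the nearest WT EZH2 peak was 5 to 10 kb away, 24.5% (21.5 to 27.7) at 10 to 50 kb and 15% (10.8 to 20) beyond 50 kb. Where the overlapped KO H3K27me3 peak was at least 1000 bp wide the share was 49.5% (39.5 to 59.5), and where it was under 300 bp wide 16.8% (13.9 to 20).

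Just inside the score limit, 9 KO-only peaks had a score of 15 to 19, and just outside it 7 otherwise alike peaks had a score of 20 to 29, with 42 at or above the limit in all. Just inside the distance limit, 130 peaks had their nearest WT EZH2 peak 5 to 6 kb away, and just outside it 158 had one at 4 to 5 kb. Of the 19349 KO EZH2 peaks, 63.6% had no WT EZH2 peak within 5 kb and 18.9% overlapped KO H3K27me3. KO H3K27me3 overlapped 12% of those without a WT EZH2 peak nearby, the 1477 described here, and 30.9% of those with one.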

How the data were processed

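Groups came from the title and genotype labels. Per the submitters' processing notes, cutadapt 1.9.3, Bowtie2 2.2.4 and hg38 were used, while the sources used here name no peak caller and no sequencing depth. Each of the 4 deposited lists had 6 columns. The fifth held the peak length in bp and the sixth the authors' score, a deposited value that the sources used here do not define. Identical lines were counted once, and coordinates were read as 1-based.

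Overlaps (minimum 1 bp), distances, covered lengths and Clopper-Pearson intervals were obtained in pandas 2.3.3, SciPy 1.17.1 and NumPy 2.4.6 under Python 3.11.15, and figures drawn with matplotlib 3.10.9. The routines were tested on simulated data. Genes (20033 protein-coding) and promoter windows were from RefSeq GRCh38.p14, and sequences of the peaks were not analysed here. Named were the 15 loci with most peaks (ties by covered length), the 10 widest peaks, the 5 with the highest scores, up to 4 genes of each of 28 lists, and ZCCHC8, EZH2, SUZ12 and EED; other names were chosen after their values were seen. Some genes that this rule takes are not reported here. The regions and lists were chosen with earlier results of these data known. Alternatives changed the distances, score limits, overlap, gene window and chromosomes used.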

Additional observations from a re-analysis of the deposited data

How the results depend on the processing

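With 1 library per group, no library could be left out and no spread between replicates is known. No paired analysis was possible because each group had 1 library and no result came from a test. Of 44 values under other settings 25 stayed within counting error (shares) or 1.5 times (counts) of the value reported and 19 moved. With WT EZH2 excluded within 1 kb in place of 5 kb, there were 2451 KO-only peaks at 306 genes, 30.4% with WT H3K27me3 and 14.1% near a gene end, and 22% of the WT-only set had KO H3K27me3. With 50 kb these values were 254, 34, 15%, 13.8% and 11.6%. With peaks scoring below 7 left out of all 4 lists, 243 peaks at 23 genes were left, 32.9% with WT H3K27me3. This cut was not alike in the genotypes, as 21.3% of KO-only peaks and 69.9% of the WT-only set scored 7 or more. With 50% of the peak required to overlap, 18% of KO-only peaks had WT H3K27me3 and 11.6% of the WT-only set had KO H3K27me3. A gene window of 1 kb gave 2.57% of peaks and 39 genes, and one of 20 kb gave 32% and 514. The cause was not tested. Leaving out peaks over 500 kb from genes, chosen after seeing the data, gave 1309 peaks, 25.8% with WT H3K27me3.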

Other observations

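Long non-coding genes held KO-only EZH2 peaks as well, and those below are named after their values were seen. Of 18303 lncRNA genes 192 (1.05%) had one inside, of 1265 transcribed pseudogenes 19 (1.5%), and of 1913 miRNA genes none. By the same measure 317 of 20033 protein-coding genes had one inside. Gene length, which differs between these kinds, was not taken into account. DIRC3 on chromosome 2, a non-coding gene first found at a renal cancer breakpoint, held 14, with 37 EZH2 peaks in KO and 17 in WT and H3K27me3 over 49552 bp in KO and 19115 bp in WT. LOC105369617 on chromosome 12 held 10, with 55176 bp of H3K27me3 in KO and 47398 bp in WT. LOC124903077 held 4, with 3481 bp in KO and 402 bp in WT and no WT EZH2 peak. PANTR1 held 3 among 9 KO EZH2 peaks, with 3387 bp of H3K27me3 in KO, and had no WT peak of either antibody.

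LINC01297-DUXAP10-NBEAP6 on chromosome 14 held 6, with 11149 bp of H3K27me3 in KO and 6854 bp in WT, and FAM230J on chromosome 22 held 3, with 2736 bp in KO and 2779 bp in WT. Both belong to families with near-identical copies, so their reads cannot be placed with certainty. LOC105371293 held 3, all of which overlapped WT H3K27me3, with 4117 bp in KO and 2061 bp in WT. In LINC03056 the order was the other way, with 12612 bp in KO and 16093 bp in WT. As these genes were picked for their KO-only peaks, an excess of KO peaks is partly built in.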
